A study of Arabidopsis thaliana with 12 samples.

Results

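The cysteine-rich receptor-like kinases (CRKs) of Arabidopsis thaliana were followed as a family of 41 listed loci, chosen by gene identifier, out of the 33602 genes counted. Of these, 20 loci form the tandem cluster AT4G23130 to AT4G23320 on chromosome 4 and 21 are other members, 16 of them also on chromosome 4. Whole seedlings grown in shaken liquid culture were compared at an age of 6 days after 1 h with isoxaben or its solvent DMSO. The 4 groups of 3 libraries were ixr1-1 with 600 nM isoxaben, ixr1-1 with DMSO, Col-0 with 600 nM isoxaben and Col-0 with DMSO. Col-0 is the wild type. The mutant ixr1-1, in the Col-0 background per the labels, is an isoxaben-resistant line with an altered form of the cellulose synthase subunit CESA3, and isoxaben is a herbicide that blocks the making of cellulose. The mutant is a single line, each library pools many seedlings, and the allele alters the CESA3 protein, so transcript counts give no check of the genotype.

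CRKs are membrane proteins with a pair of cysteine-rich DUF26 domains outside the cell and a serine/threonine kinase domain inside it. Many of their genes lie in tandem arrays, and many are known to respond to pathogens, salicylate, ozone and other sources of reactive oxygen. Several CRKs are known to act with pattern receptors such as FLS2 or on the NADPH oxidase RBOHD, which releases reactive oxygen into the cell wall space.

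Levels are given as CPM, counts scaled to a common library size, with TMM factors (edgeR's correction for library makeup). Libraries held 8521491 to 20658035 counts, and the CRK loci took 0.0447 to 0.0924% of them. The 6 ixr1-1 libraries stood apart from the 6 Col-0 libraries in transcripts of seed storage. The summed level of 9 seed storage markers ran from 106.7 to 705.6 CPM in ixr1-1 libraries and from 0.286 to 1.31 CPM in Col-0 libraries. None of the 9 markers was at 0 counts in an ixr1-1 library, while 2 to 7 of them were at 0 in each Col-0 library. All 9 rose in ixr1-1 with DMSO and 8 of 9 with isoxaben. The sum of 10 root markers was 151.6 to 157.5 CPM in ixr1-1 and 145.3 to 156.3 CPM in Col-0 libraries, and that of 10 shoot markers was 18290 to 22010 CPM in ixr1-1 and 22480 to 25080 CPM in Col-0. Of the root markers 1 fell in ixr1-1 with DMSO, and 1 rose and 1 fell with isoxaben. Of the shoot markers 2 fell with DMSO and 5 with isoxaben. Among all tested genes 9.79% rose and 7.42% fell with DMSO, and 6.92% rose and 5.85% fell with isoxaben. The seed storage and shoot marker sums move with the genotype, and so with each CRK difference between ixr1-1 and Col-0 given here. The root marker sums overlapped between the genotypes. The part of these markers in the CRK differences was not tested.

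Of the 41 loci, 34 had enough counts to be tested and 7 did not. CRK1 (AT1G19090, named RKF2 in RefSeq) and CRK33 (AT4G11490) had 0 counts in the 12 libraries, which allows a level of up to 0.0176 CPM over their pooled counts. The other 5 untested members were CRK8, CRK23, CRK32, CRK37 and CRK38. Per kilobase of exon, CRK40 had the highest level of the family, at 40.3 CPM per kb on average over the 12 libraries, above 83.7% of all tested genes. CRK21 (21.8 CPM per kb), CRK29 (20.7), CRK19 (18.1) and CRK22 (18.0) followed, and CRK42 (17.0) and CRK10 (16.6) came next. This order over all libraries differed by genotype. With DMSO, CRK21 (26.8 ± 3.94), CRK29 (25.2 ± 3.44) and CRK10 (24.1 ± 3.60) followed CRK40 in ixr1-1, where CRK42 was at 17.3 ± 1.66 CPM per kb. In Col-0 CRK42 came right after CRK40, at 16.6 ± 1.22 CPM per kb, with CRK21 (16.1 ± 1.47), CRK22 (15.5 ± 1.39) and CRK29 (15.3 ± 0.70) next (SD, n = 3 each). At the low end of the tested members, CRK7 averaged 0.238 and CRK39 0.282 CPM per kb. The tandem cluster held members from both ends of this order: CRK7 lies between CRK6 and CRK8, and CRK21 and CRK22 lie next to each other.

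**Figure D1:**
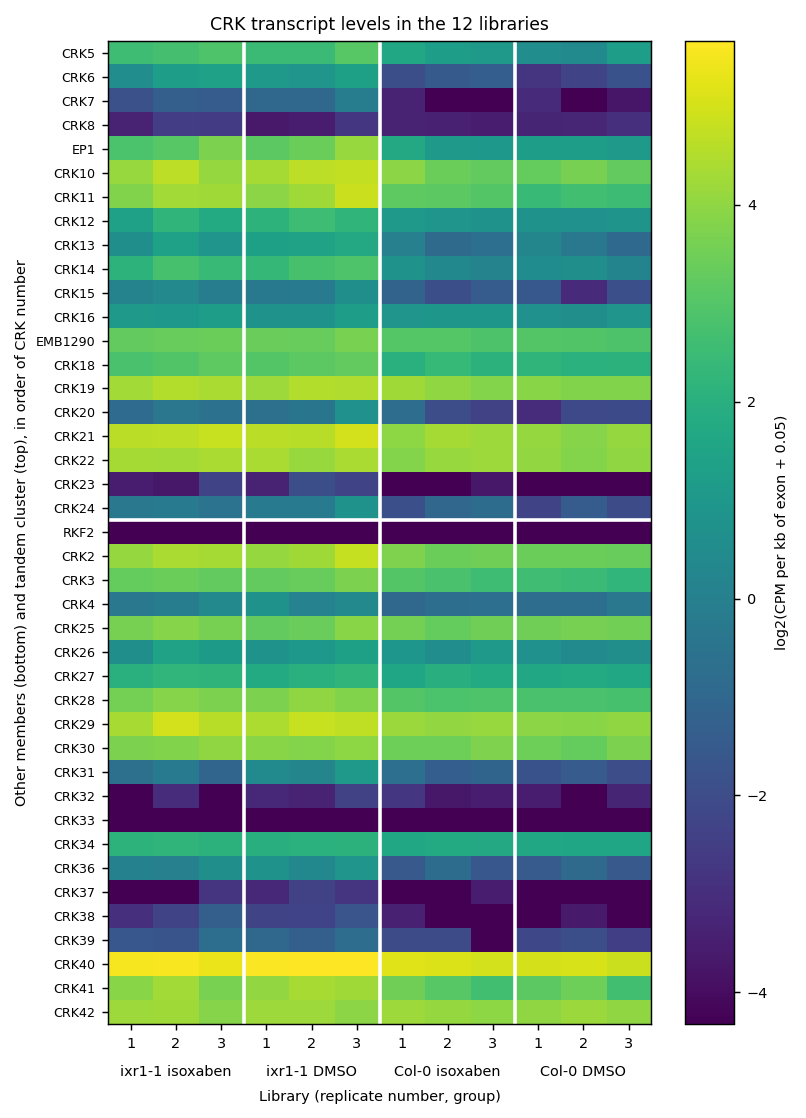
Levels of the 41 CRK loci (rows) in the 12 libraries (columns), as log2 of CPM per kb of exon plus 0.05. EP1 is CRK9, EMB1290 is CRK17 and RKF2 is CRK1. CRK40 is the brightest row, CRK1 and CRK33 stay at the bottom of the scale, and most rows of the tandem cluster are brighter in the 6 ixr1-1 columns on the left.

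The first comparison asked how CRK transcripts of ixr1-1 differed from those of Col-0 when both had received DMSO alone. Of the 34 tested members 28 rose in ixr1-1 and 0 fell (edgeR, adjusted p at most 0.05), where 9.79% of all tested genes rose and 7.42% fell, 17.2% in all. The median log2 fold change over the tested members was 1.05, against -0.0010 over all tested genes, and 19 of the 28 had a fold of at least 2. The share of all tested genes called at that fold is not given here. In 33 of the 41 loci the 3 ixr1-1 libraries lay above the 3 Col-0 libraries without overlap, as did 17.6% of all tested genes. In bulk seedlings, more cells of a type and more RNA per cell cannot be told apart. A filter on low counts can favour members that are high in 1 group: 8 tested members were under 1 CPM in both Col-0 groups, and 7 of the 8 were called. Over members with a mean of at least 1 CPM over the 12 libraries, 26 of 31 rose, and without any filter 31 of 39 did. The CPM of that filter was taken without TMM factors, while the fit used them. The shares of all genes that rose under these filters are not given here, so the 9.79% is no measure for these counts. Scaling by library size alone called 29 members higher, and made 74.5% of all called genes higher in ixr1-1, against 56.9% with TMM factors. These percentages are of the called genes only. The share of all tested genes called higher with this scaling is not given here.

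**Figure D2:**
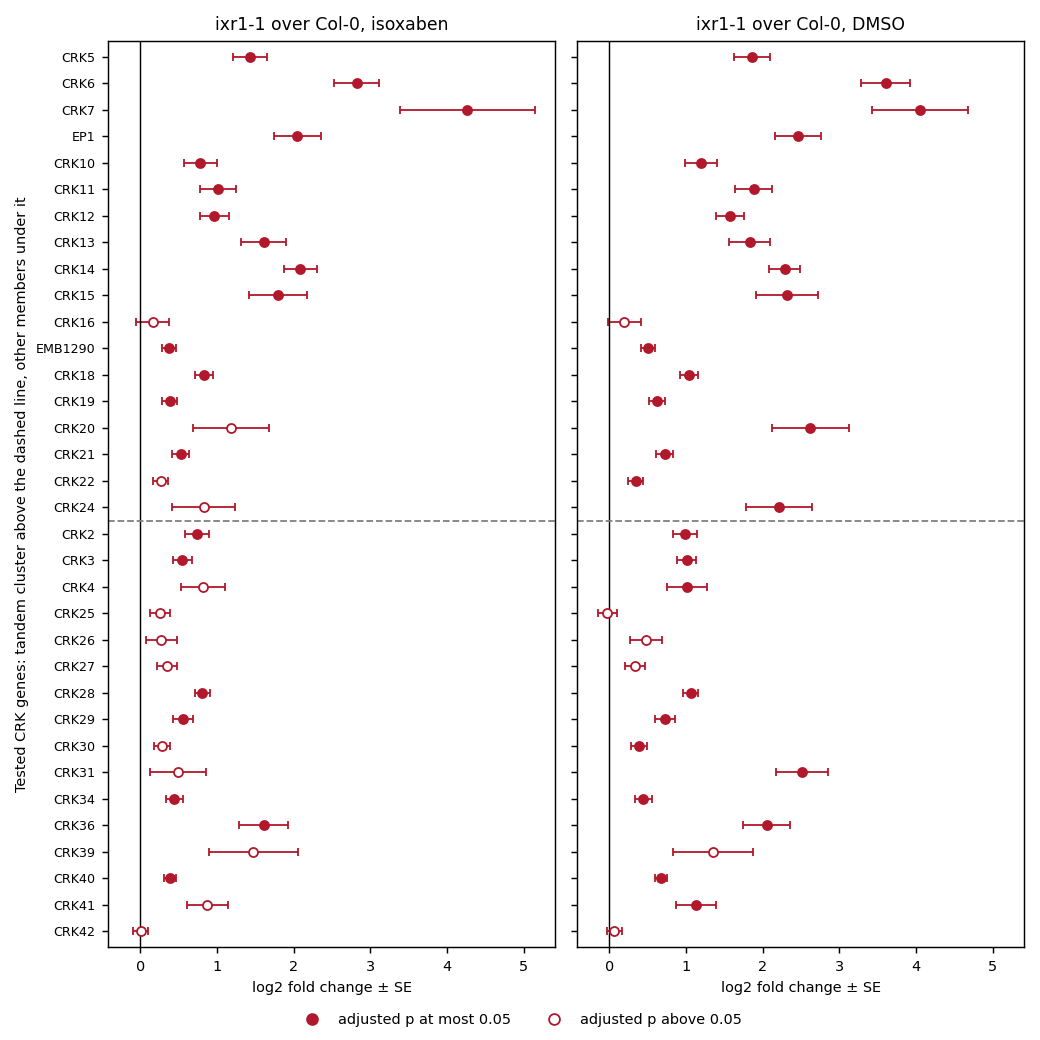
Log2 fold change of ixr1-1 over Col-0 for the 34 tested CRK genes with isoxaben (left) and with DMSO (right). Points are edgeR estimates, bars 1 SE worked back from the test statistic, and filled points have an adjusted p of at most 0.05. The dashed line divides the tandem cluster (above) from the other members. With DMSO 28 points are filled, 17 of them in the cluster, and the CRK7 estimate rests on 3 counts in Col-0 with DMSO and 1 with isoxaben.

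The tandem cluster runs over 74.4 kb of chromosome 4, 12117541 to 12191977 in the files' positions, with 9 genes on the plus and 11 on the minus strand and 3 genes inside it that are not members. With DMSO 17 of its 18 tested genes rose in ixr1-1, all but CRK16, with a median log2 fold change of 1.84. Outside the cluster 11 of 16 tested members rose, with a median of 0.86. The summed level of the 20 cluster loci, which needs no filter, was 376.5 ± 58.2 CPM in ixr1-1 and 187.8 ± 4.55 CPM in Col-0 with DMSO (SD, n = 3 each), a ratio of 2. That of the 21 other loci was 434.1 ± 31.3 CPM in ixr1-1 and 278.7 ± 10.6 CPM in Col-0, a ratio of 1.56. Members are not replicates of each other, so the difference between the cluster and the other members was not tested. The nearest tested genes around the cluster had log2 fold changes of -0.34 (GSH1, called lower), -0.03 (AT4G23330) and 0.13 (AT4G23340). The pseudogene AT4G23215, which lies between CRK13 and CRK14, rose with a log2 fold change of 2.402 ± 0.366 (SE; adjusted p = 0.000236).

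Along the cluster the differences were not even, a split chosen after the values were seen. From CRK5 to CRK15 the 10 tested genes had log2 fold changes of 1.195 to 4.05 with DMSO, and from CRK16 to CRK24 the 8 tested genes had 0.20 to 2.62 with a median of 0.67. CRK5 (chromosome 4, 12117541 to 12120134), whose overexpression is known to raise pathogen resistance, was at 11.9, 11.7 and 17.9 CPM in ixr1-1 with DMSO, against 3.07, 2.81 and 5.13 CPM in Col-0 with DMSO. With isoxaben CRK5 was at 12.7, 14.1 and 16.2 CPM in ixr1-1, against 6.76, 5.04 and 4.46 CPM in Col-0. Its 6 ixr1-1 libraries lay above its 6 Col-0 libraries, with a log2 fold change of 1.86 ± 0.23 with DMSO (SE; edgeR adjusted p = 0.000126).

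CRK6 and CRK7 are known for roles in the response to extracellular reactive oxygen, and CRK6 also associates with FLS2. CRK6 (chromosome 4, 12121383 to 12124205) had the smallest adjusted p of the family. It was at 4.55, 4.06 and 5.55 CPM in ixr1-1 with DMSO, against 0.204, 0.351 and 0.524 CPM in Col-0 with DMSO. With isoxaben it was at 3.17, 5.10 and 5.75 CPM in ixr1-1, against 0.483, 0.687 and 0.767 CPM in Col-0. The log2 fold change of CRK6 was 3.60 ± 0.32 with DMSO (SE; adjusted p = 6.02e-07) and 2.83 ± 0.29 with isoxaben (adjusted p = 7.6e-06), and its genotypes did not overlap. CRK7 (chromosome 4, 12125731 to 12128332) had 8, 20 and 18 counts in ixr1-1 with DMSO, against 2, 0 and 1 counts in Col-0. Pooled over libraries, that is 19.3 times the Col-0 level, with a 95% counting interval of 6.2 to 96.9. With isoxaben CRK7 had 5, 10 and 10 counts in ixr1-1 against 1, 0 and 0 in Col-0, a ratio of 27.5 (4.5 to 1130). CRK7 was called in both comparisons (adjusted p = 0.000178 with DMSO and 0.00362 with isoxaben), and its intervals cover counting error only.

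CRK9 (chromosome 4, 12135093 to 12136157, named EP1 in RefSeq) was at 9.45, 11.4 and 18.4 CPM in ixr1-1 with DMSO, against 2.45, 2.46 and 2.20 CPM in Col-0 with DMSO. With isoxaben it was at 7.60, 8.99 and 13.7 CPM in ixr1-1, against 3.38, 2.18 and 2.09 CPM in Col-0. The 3 Col-0 libraries with DMSO were close together and the ixr1-1 libraries ranged widely, all of them higher, with log2 fold changes of 2.46 ± 0.30 with DMSO (SE; adjusted p = 0.000147) and 2.05 ± 0.31 with isoxaben (adjusted p = 0.00132). CRK9 shares 91.0% identity over 768 bases with CRK8, so reads of these neighbours may be split between them.

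CRK12 (chromosome 4, 12145380 to 12147934) was at 8.40, 11.4 and 8.86 CPM in ixr1-1 with DMSO, against 3.27, 3.09 and 3.41 CPM in Col-0 with DMSO. With isoxaben it was at 5.07, 8.85 and 6.54 CPM in ixr1-1, against 3.86, 3.55 and 3.21 CPM in Col-0. CRK12 rose in both comparisons, with log2 fold changes of 1.58 ± 0.18 with DMSO (SE; adjusted p = 1.01e-05) and 0.97 ± 0.19 with isoxaben (adjusted p = 0.00262). CRK13 (chromosome 4, 12148714 to 12151479), whose overexpression is known to raise salicylate and pathogen resistance, was at 6.07, 6.35 and 7.69 CPM in ixr1-1 with DMSO, against 2.79, 1.83 and 1.15 CPM in Col-0. With isoxaben CRK13 was at 3.71, 6.16 and 4.36 CPM in ixr1-1, against 2.32, 1.203 and 1.39 CPM in Col-0. CRK13 rose by 1.83 ± 0.27 with DMSO and 1.61 ± 0.30 with isoxaben (log2, SE; adjusted p = 0.000178 and 0.00203). Part of its sequence, 826 bases, is 96.3% identical to CRK22, whose level was far higher, so the authors' counting could have split reads between them.

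CRK14 (chromosome 4, 12153956 to 12157091) was at 11.6, 15.6 and 17.6 CPM in ixr1-1 with DMSO, against 3.27, 3.58 and 2.51 CPM in Col-0 with DMSO. With isoxaben it was at 10.1, 15.7 and 12.1 CPM in ixr1-1, against 3.96, 2.81 and 2.44 CPM in Col-0. The lowest ixr1-1 library of CRK14 lay above the highest Col-0 library in both treatments, with log2 fold changes of 2.29 ± 0.21 with DMSO (SE; adjusted p = 2.79e-06) and 2.09 ± 0.21 with isoxaben (adjusted p = 2.04e-05). The remaining genes of this stretch, CRK10, CRK11 and CRK15, rose with log2 fold changes of 1.195, 1.88 and 2.32 with DMSO. CRK10 is known from a gain-of-function allele that disturbs xylem.

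In the rest of the cluster, CRK18, CRK19 and CRK21 rose by less. CRK18 (chromosome 4, 12167354 to 12170086) was at 18.2, 19.9 and 21.8 CPM in ixr1-1 with DMSO, against 10.4, 9.42 and 9.53 CPM in Col-0 with DMSO. With isoxaben it was at 15.8, 17.6 and 20.8 CPM in ixr1-1, against 9.17, 11.5 and 9.62 CPM in Col-0. CRK18 did not overlap between genotypes, and its log2 fold changes were 1.04 ± 0.12 with DMSO (SE; adjusted p = 7.74e-06) and 0.83 ± 0.12 with isoxaben (adjusted p = 0.000148). CRK19 (chromosome 4, 12171103 to 12173925) was at 39.0, 48.3 and 47.2 CPM in ixr1-1 with DMSO, against 30.9, 28.5 and 28.7 CPM in Col-0 with DMSO. With isoxaben CRK19 was at 40.6, 47.7 and 43.7 CPM in ixr1-1, against 39.5, 33.3 and 29.1 CPM in Col-0. Its highest Col-0 library with isoxaben lay just under its lowest ixr1-1 library with isoxaben, and the log2 fold changes were 0.62 ± 0.10 with DMSO (SE; adjusted p = 0.000355) and 0.38 ± 0.10 with isoxaben (adjusted p = 0.018). CRK21 (chromosome 4, 12177738 to 12180826) was at 56.4, 54.4 and 70.8 CPM in ixr1-1 with DMSO, against 37.8, 32.6 and 38.8 CPM in Col-0 with DMSO. With isoxaben CRK21 was at 55.4, 57.2 and 64.5 CPM in ixr1-1, against 35.1, 45.4 and 41.8 CPM in Col-0. CRK21 rose by 0.73 ± 0.11 with DMSO and 0.53 ± 0.11 with isoxaben (log2, SE; adjusted p = 0.00035 and 0.00591).

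The other genes of this stretch were less alike. CRK17 (AT4G23250, named EMB1290 in RefSeq) and CRK22 rose with small log2 fold changes of 0.50 and 0.35 with DMSO, while the low CRK20 and CRK24 rose with 2.62 and 2.22. CRK17 is 90.9% identical to CRK18 over 1081 bases, and CRK19 90.2% to CRK20 over 1044 bases, so counts of these pairs are uncertain in the same way. The call of CRK22 was lost without Col-0 DMSO library 2 (adjusted p = 0.1) and without ixr1-1 DMSO library 1 or 3 (0.0681 and 0.0945). CRK16, between CRK15 and CRK17, was the tested gene of the cluster that was not called. CRK16 averaged 1.999 ± 0.377 CPM in ixr1-1 and 1.71 ± 0.17 CPM in Col-0 with DMSO (SD, n = 3 each), a log2 fold change of 0.20 with a 95% interval of -0.26 to 0.65 (adjusted p = 0.642).

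Outside the cluster, CRK28 and CRK29 are neighbours on chromosome 4, and CRK28 is known to form complexes with BAK1 and to raise immune responses when overexpressed. CRK28 (11399131 to 11401709) was at 28.9, 35.7 and 30.2 CPM in ixr1-1 with DMSO, against 15.4, 15.4 and 15.1 CPM in Col-0 with DMSO. With isoxaben it was at 26.2, 32.2 and 28.9 CPM in ixr1-1, against 17.8, 15.7 and 16.7 CPM in Col-0. The groups did not overlap, and CRK28 rose by 1.06 ± 0.10 with DMSO and 0.81 ± 0.10 with isoxaben (log2, SE; adjusted p = 6.5e-07 and 3.41e-05). CRK29 (11402314 to 11405056) was at 47.5, 62.4 and 57.8 CPM in ixr1-1 with DMSO, against 33.5, 32.7 and 35.7 CPM in Col-0 with DMSO. With isoxaben CRK29 was at 45.6, 69.2 and 53.2 CPM in ixr1-1, against 39.4, 36.4 and 38.8 CPM in Col-0. CRK29 rose by 0.73 ± 0.13 with DMSO and 0.56 ± 0.13 with isoxaben (log2, SE; adjusted p = 0.00214 and 0.0155), and its ixr1-1 libraries spread more than its Col-0 libraries.

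CRK2 and CRK3 lie side by side on chromosome 1. CRK2, known to phosphorylate RBOHD, averaged 46.2 ± 12.2 CPM in ixr1-1 and 23.2 ± 0.65 CPM in Col-0 with DMSO (SD, n = 3 each) and rose with a log2 fold change of 0.99 ± 0.16 (SE; adjusted p = 0.0011). CRK3 (26588750 to 26591379) was at 18.6, 19.8 and 24.9 CPM in ixr1-1 with DMSO, against 11.6, 10.8 and 9.17 CPM in Col-0 with DMSO. With isoxaben CRK3 was at 19.3, 20.5 and 18.6 CPM in ixr1-1, against 15.5, 13.3 and 11.4 CPM in Col-0. CRK3 did not overlap between genotypes and rose by 1.01 ± 0.13 with DMSO and 0.55 ± 0.12 with isoxaben (log2, SE; adjusted p = 2.07e-05 and 0.00678).

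CRK36 to CRK40 lie together in another stretch of chromosome 4. CRK36 (2231957 to 2234638), known to associate with the immune kinase BIK1, was at 3.27, 2.39 and 3.60 CPM in ixr1-1 with DMSO, against 0.613, 0.984 and 0.576 CPM in Col-0 with DMSO. With isoxaben CRK36 was at 1.99, 1.91 and 2.97 CPM in ixr1-1, against 0.579, 1.03 and 0.558 CPM in Col-0. CRK36 rose by 2.05 ± 0.31 with DMSO and 1.61 ± 0.32 with isoxaben (log2, SE; adjusted p = 0.000133 and 0.00288). CRK40 (2289959 to 2292755), the member with the highest level, was at 111.1, 114.5 and 114.7 CPM in ixr1-1 with DMSO, against 72.7, 75.3 and 65.3 CPM in Col-0 with DMSO. With isoxaben CRK40 was at 105.5, 107.8 and 92.5 CPM in ixr1-1, against 82.1, 80.1 and 71.6 CPM in Col-0. CRK40 rose by 0.68 ± 0.08 with DMSO and 0.39 ± 0.08 with isoxaben (log2, SE; adjusted p = 7.59e-06 and 0.00232).

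CRK31 (chromosome 4, 6967729 to 6970161) was at 2.57, 2.24 and 4.19 CPM in ixr1-1 with DMSO, against 0.477, 0.632 and 0.419 CPM in Col-0 with DMSO. With isoxaben CRK31 was at 1.18, 1.63 and 0.859 CPM in ixr1-1, against 1.16, 0.687 and 0.836 CPM in Col-0. The genotypes were far apart with DMSO, a log2 fold change of 2.51 ± 0.34 (SE; adjusted p = 5.38e-05), and overlapped with isoxaben, at 0.50 ± 0.37 (adjusted p = 0.42). The difference between these 2 values, which is the interaction, was not called (adjusted p = 0.157). CRK4, CRK20, CRK22, CRK24, CRK30 and CRK41 were also called with DMSO and not with isoxaben.

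The remaining members that rose with DMSO were CRK4, CRK30, CRK34 and CRK41, with log2 fold changes of 1.01, 0.39, 0.45 and 1.13. CRK4 is known to associate with FLS2. The call of CRK30 was lost without Col-0 DMSO library 1 or 2 (adjusted p = 0.0526 and 0.0714) or ixr1-1 DMSO library 3 (0.0566), that of CRK34 without ixr1-1 DMSO library 2 (0.0606), and that of CRK41 without Col-0 DMSO library 1 (0.0522) or ixr1-1 DMSO library 2 (0.0721). Of the other members, 5 were not called: CRK25 (-0.03), CRK26 (0.48), CRK27 (0.33), CRK39 (1.35) and CRK42 (0.07). CRK27 was called without ixr1-1 DMSO library 1 (adjusted p = 0.0489) and CRK39 without Col-0 isoxaben library 3 (0.0429). CRK42 averaged 42.2 ± 4.05 CPM in ixr1-1 and 40.5 ± 2.99 CPM in Col-0 with DMSO (SD, n = 3 each), and the 95% interval of its log2 fold change was -0.14 to 0.27. Exons of CRK25 and CRK42 overlap a gene on the opposite strand, over 391 and 92 bases, and the sources used here name no strand setting for the counting.

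**Figure D3:**
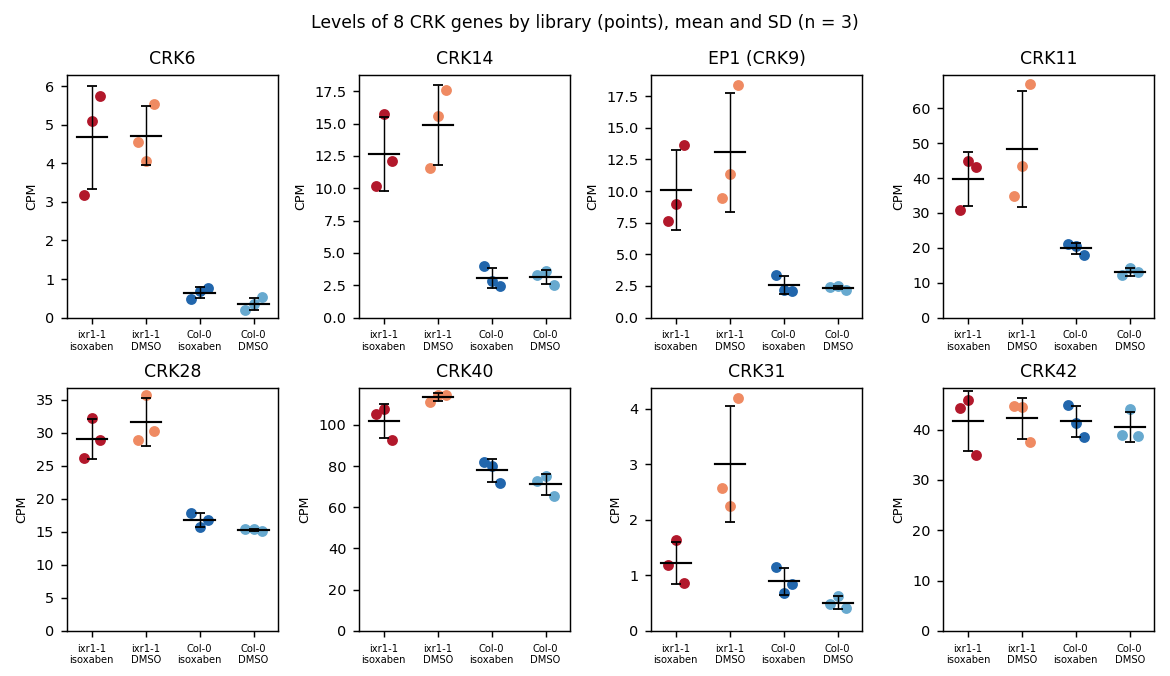
CPM of 8 CRK genes in each library (points), with the group mean and SD (n = 3, lines). CRK6, CRK14, CRK9 (EP1), CRK28 and CRK40 are higher in each ixr1-1 library than in any Col-0 library, CRK31 overlaps between genotypes with isoxaben, and CRK42 overlaps in both treatments; CRK11 and CRK42 were chosen for display after their values were seen.

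Several members without a test had few counts in Col-0. CRK23 had 1, 11 and 4 counts in ixr1-1 with DMSO and 0 in the 3 Col-0 libraries. That is 6.71-fold higher with 3 counts over the Col-0 group taken as the floor and the ixr1-1 count taken as exact. CRK37 had 1, 6 and 2 counts in ixr1-1 with DMSO and 0 in Col-0, 3.77-fold higher in the same way. These folds of CRK23 and CRK37 leave out the counting error of ixr1-1, so they are not lower limits. CRK38 had 16 counts in ixr1-1 with DMSO against 1 in Col-0, a ratio of 20.1 with a 95% counting interval of 3.13 to 844. CRK32 had 6 against 3 counts, a ratio of 2.52 (0.537 to 15.5), and CRK8 had 8 against 12 counts. CRK8 and CRK32 thus did not separate the genotypes at this depth.

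The second comparison set ixr1-1 against Col-0 when both had received isoxaben. Of the 34 tested members 21 rose in ixr1-1 and 0 fell, where 6.92% of all tested genes rose and 5.85% fell, 12.8% in all. The median log2 fold change of the tested members was 0.80, against 0.0035 over all tested genes. In 31 of the 41 loci the ixr1-1 libraries lay above the Col-0 libraries without overlap, as did 15.8% of all tested genes. In the tandem cluster 14 of 18 tested genes rose, with a median of 0.99, and 7 of 16 outside it, with a median of 0.52. Over members with a mean of at least 1 CPM, again with TMM factors in the fit and not in the filter, 20 of 31 rose. In the main fit 9 of the 21 had a fold of at least 2. The shares of all genes under this filter and at this fold are not given here. Scaling by library size alone called 26 members higher, and made 75.9% of all called genes higher in ixr1-1, against 54.2% with TMM factors. Again these percentages are of the called genes, and the share of all tested genes is not given here.

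Calls with isoxaben rested more on single libraries. The call of CRK2 was lost without ixr1-1 isoxaben library 2 (adjusted p = 0.0515), and that of CRK17 without Col-0 isoxaben library 3 (0.0531). CRK29 lost its call without Col-0 isoxaben library 2 or 3 (0.0685 and 0.0515), and CRK34 without ixr1-1 isoxaben library 2 (0.0657). CRK11 and CRK19 lost theirs without library 2 or 3 of Col-0 isoxaben or of ixr1-1 isoxaben, with adjusted p values of 0.0673 to 0.0865 for CRK11 and 0.0506 to 0.0952 for CRK19. CRK10, called at 0.0442, passed the threshold by little: leaving out any of 9 libraries (Col-0 DMSO 1 or 3, Col-0 isoxaben 2 or 3, ixr1-1 DMSO 2 or 3, or any of the ixr1-1 isoxaben libraries) gave 0.0507 to 0.138. In the other direction, CRK20 was called without Col-0 isoxaben library 1 (0.0413), and CRK41 without Col-0 isoxaben library 1 or Col-0 DMSO library 2 or 3 (0.0401 to 0.0495).

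Over both treatments, 26 of the 41 loci had each of the 6 ixr1-1 libraries above each of the 6 Col-0 libraries, as did 7.31% of all tested genes and 6.01% of genes with any count. These were 15 loci of the cluster and 11 others. The comparisons with DMSO and with isoxaben set different libraries against each other, but both come from 1 fit with a shared estimate of the spread. The protocol also divides the seedlings of a flask between the treatments, so the comparisons are not independent. The summed level of the 41 loci was 749.6 ± 62.3 CPM in ixr1-1 and 511.2 ± 26.0 CPM in Col-0 with isoxaben, a ratio of 1.47 (SD, n = 3 each). With DMSO it was 810.7 ± 88.0 CPM in ixr1-1 and 466.5 ± 9.04 CPM in Col-0, a ratio of 1.74. The ixr1-1 libraries differed among themselves: 21 members had their highest level of the 12 libraries in ixr1-1 DMSO library 3, and 18 had their lowest of the 6 ixr1-1 libraries in ixr1-1 isoxaben library 1. That library also had the lowest seed storage sum in ixr1-1, 106.7 CPM, and 32 of the 41 loci were above the 6 Col-0 libraries in it, as were 23.5% of all tested genes. The highest CRK sum, 904.5 CPM in ixr1-1 DMSO library 3, came with a seed storage sum of 595.6 CPM. The highest seed storage sum, 705.6 CPM in ixr1-1 DMSO library 2, came with a CRK sum of 797.4 CPM. The lowest seed storage sum in ixr1-1, in isoxaben library 1, came with the lowest CRK sum in ixr1-1, 691.3 CPM. Of the ixr1-1 DMSO libraries, library 1 was lowest in both, at 213.4 CPM for seed storage and 730.1 CPM for the CRK loci. In ixr1-1 with isoxaben, these sums were 419.6 and 815.2 CPM in library 2, and 638.7 and 742.4 CPM in library 3. A link between seed storage and CRK levels was not tested. Without both ixr1-1 libraries numbered 1, which hold the lowest seed storage sum of their groups, 27 members were called with DMSO and 22 with isoxaben. The ixr1-1 libraries kept are those with the higher seed storage sums, so these counts cannot show what part seed storage has. The shares of all genes called in this fit are not given here.

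**Figure D4:**
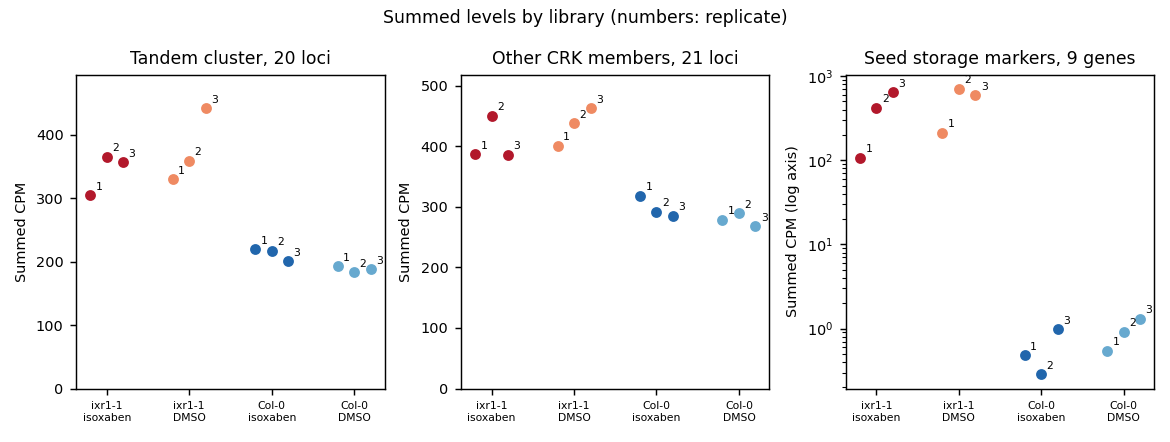
Summed CPM of the 20 tandem cluster loci, the 21 other CRK loci and the 9 seed storage markers (log axis) in each library, with replicate numbers beside the points. In each panel the 6 ixr1-1 points lie above the 6 Col-0 points; the seed storage sums of ixr1-1 run from 106.7 to 705.6 CPM, and those of the CRK loci span a narrower range.

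Promoter sequences are shown for the tested members whose start in RefSeq (TAIR10.1) lay at most 30 bases upstream of the start in the files and whose 250 bases before the RefSeq start met no other annotated gene. Of these 6 members, CRK6, CRK11, CRK17, CRK20 and CRK31 rose in ixr1-1 with DMSO and CRK27 was not called. Each is written 5′ to 3′ on the gene's strand, from TAIR10.1, and capitals mark the W-box core TTGAC, to which WRKY factors are known to bind, or its reverse complement GTCAA.
CRK6, chr4:12121119-12121368, plus strand: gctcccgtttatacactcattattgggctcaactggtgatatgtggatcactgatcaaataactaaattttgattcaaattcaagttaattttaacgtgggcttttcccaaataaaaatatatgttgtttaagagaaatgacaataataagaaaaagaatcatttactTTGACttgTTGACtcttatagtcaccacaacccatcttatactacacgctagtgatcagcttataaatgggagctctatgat
CRK11, chr4:12143859-12144108, minus strand: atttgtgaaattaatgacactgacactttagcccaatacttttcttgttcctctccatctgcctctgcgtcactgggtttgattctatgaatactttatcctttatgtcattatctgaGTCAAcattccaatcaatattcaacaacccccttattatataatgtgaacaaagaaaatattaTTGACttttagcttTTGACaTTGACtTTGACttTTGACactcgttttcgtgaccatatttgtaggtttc
CRK17, chr4:12167027-12167276, minus strand: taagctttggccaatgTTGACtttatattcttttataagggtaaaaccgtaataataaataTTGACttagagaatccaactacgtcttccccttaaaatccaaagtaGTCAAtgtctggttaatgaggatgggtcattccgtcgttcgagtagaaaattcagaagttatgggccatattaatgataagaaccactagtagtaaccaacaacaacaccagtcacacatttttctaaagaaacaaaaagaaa
CRK20, chr4:12174483-12174732, plus strand: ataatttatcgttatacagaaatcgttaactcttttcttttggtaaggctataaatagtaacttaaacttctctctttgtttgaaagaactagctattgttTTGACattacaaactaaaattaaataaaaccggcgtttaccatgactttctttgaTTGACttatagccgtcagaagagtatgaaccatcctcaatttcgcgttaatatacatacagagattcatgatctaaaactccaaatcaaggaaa
CRK31, chr4:6967459-6967708, plus strand: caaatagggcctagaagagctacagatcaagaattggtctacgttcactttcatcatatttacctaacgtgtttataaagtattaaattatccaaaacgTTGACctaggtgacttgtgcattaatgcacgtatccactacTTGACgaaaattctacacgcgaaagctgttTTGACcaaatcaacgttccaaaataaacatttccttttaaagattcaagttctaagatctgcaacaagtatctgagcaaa
CRK27, chr4:11321680-11321929, minus strand: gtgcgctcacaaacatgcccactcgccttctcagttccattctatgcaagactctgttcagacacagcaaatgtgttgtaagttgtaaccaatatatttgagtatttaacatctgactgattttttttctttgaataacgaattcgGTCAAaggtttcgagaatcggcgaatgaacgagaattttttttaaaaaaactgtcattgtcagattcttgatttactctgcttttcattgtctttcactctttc
The core was found 6 times before CRK11, 3 times before CRK17 and CRK31, 2 times before CRK6 and CRK20, and 1 time before CRK27. Counted on both strands in the same window, 30 of the 41 members held it (73.2%), against 44.5% of 32822 genes with such a window and 56.3% of the genes that rose in ixr1-1 with DMSO. At least 2 matches were found for 17 members (41.5%), 13.7% of all genes and 25.5% of the genes that rose. Within the family, 18 of the 28 members that rose held the core, as did 6 of the 6 tested members that were not called. The longer forms TTGACC and TTGACT, which contain the core, were found for 9 and 19 members (22.0 and 46.3%), against 11.7 and 18.9% of all genes. Windows of some members start far from the files' gene starts or reach into a neighbour, tandem copies share sequence, and a match is only a match of letters.

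The third comparison asked how isoxaben changed CRK transcripts within Col-0. Of the 34 tested members 0 were called by edgeR, where 0.78% of all tested genes were, and DESeq2 and limma-voom also called 0. At an unadjusted p of at most 0.05 there were 2, CRK3 and CRK11, where 6.81% of all tested genes had one. Of the 34 estimates 27 were positive, with a median log2 fold change of 0.12, against -0.0014 over all tested genes. The libraries did not overlap for 5 of the 41 loci that were higher with isoxaben and 1 that was lower, against 6.86 and 5.97% of all tested genes. CRK3, with the smallest adjusted p, was at 15.5, 13.3 and 11.4 CPM with isoxaben, against 11.6, 10.8 and 9.17 CPM with DMSO, a log2 fold change of 0.35 ± 0.13 (SE; adjusted p = 0.452). The lowest CRK3 library with isoxaben lay under the highest with DMSO. CRK11, singled out after its values were seen, was at 21.04, 20.4 and 18.1 CPM with isoxaben, against 12.1, 14.3 and 13.0 CPM with DMSO. Its Col-0 libraries did not overlap between treatments, and its log2 fold change was 0.59 ± 0.26 (SE; adjusted p = 0.701). When the 6 Col-0 libraries were fitted alone, CRK11 was called (adjusted p = 0.00356), with a log2 fold change of 0.60.

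For members with high counts the intervals were narrow. The 95% interval of the isoxaben effect in Col-0 was -0.03 to 0.29 for CRK40, -0.17 to 0.24 for CRK42 and -0.07 to 0.41 for CRK21, on the log2 scale. For the low CRK6 it was -0.15 to 1.77, a wider interval that does not exclude a rise.

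The fourth comparison set isoxaben against DMSO within ixr1-1. Of the 34 tested members 0 were called (edgeR), where 0% of all tested genes were, and 0 by DESeq2 and limma-voom. At an unadjusted p of at most 0.05 there were 3, CRK7, CRK12 and CRK31, where 3.64% of all tested genes had one. Their log2 fold changes were -0.92, -0.50 and -1.25, each with an adjusted p of 1, and 9 of the 34 estimates were positive, with a median of -0.12. The libraries did not overlap for 1 locus that was higher with isoxaben and 3 that were lower, against 4.3 and 3.89% of all tested genes. CRK31 was at 1.18, 1.63 and 0.859 CPM with isoxaben, against 2.57, 2.24 and 4.19 CPM with DMSO, without overlap. The 95% interval of the isoxaben effect in ixr1-1 was -0.31 to 0.00 for CRK40 and -0.24 to 0.19 for CRK42 on the log2 scale.

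**Figure D5:**
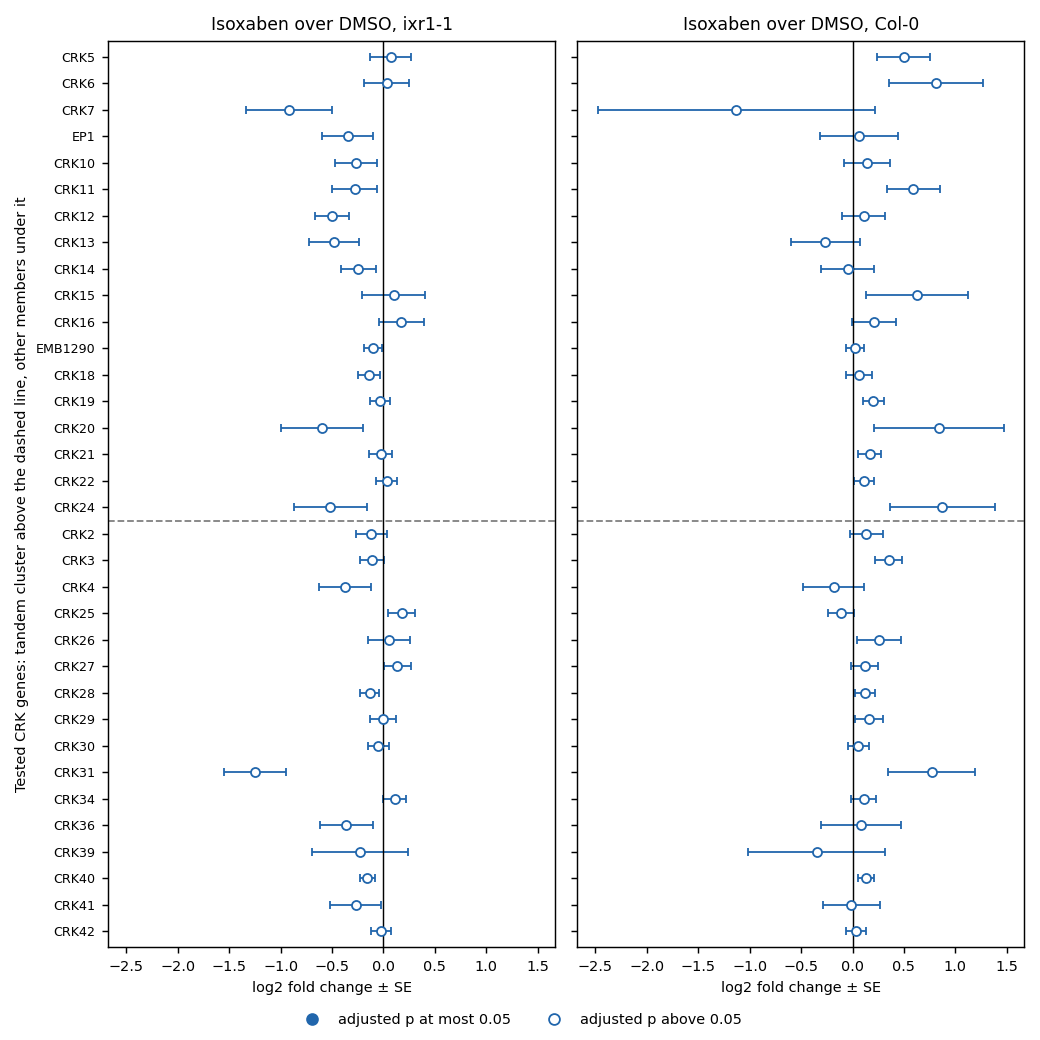
Log2 fold change of isoxaben over DMSO in ixr1-1 (left) and in Col-0 (right) for the 34 tested CRK genes, with bars of 1 SE; no point is filled, since none had an adjusted p of at most 0.05. In ixr1-1 9 estimates lie right of 0 and in Col-0 27 do, and the widest bars belong to genes with few counts such as CRK7.

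The interaction asks whether the isoxaben effect differed between ixr1-1 and Col-0. It was called for 0 of the 34 members by edgeR, DESeq2 and limma-voom, where edgeR called 0.314% of all tested genes, and 6 members had an unadjusted p of at most 0.05, as did 4.76% of all tested genes. The smallest adjusted p was 0.157, for CRK31, with a log2 difference of -2.02 ± 0.52 (SE). The isoxaben effect of CRK31 was -1.25 ± 0.30 in ixr1-1 and 0.77 ± 0.42 in Col-0. CRK3, CRK11, CRK12, CRK24 and CRK40 were the other 5, with differences of -0.46, -0.87, -0.61, -1.39 and -0.29 and adjusted p values of 0.709 to 0.969. The treatment protocol divides the seedlings of 1 flask between isoxaben and DMSO, but no label ties a replicate number to a flask. With same-numbered libraries of a genotype taken as a block, CRK11 was called for the interaction (adjusted p = 0.0444) and for isoxaben in Col-0 (0.0469). The treatment comparisons share their libraries with the genotype comparisons, so their values stand side by side here and give no independent support.

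Genes that share a domain or a pathway with CRKs were read from 4 lists. The 8 plasmodesmata-located proteins (PDLPs), which carry DUF26 domains but no kinase domain, had 0 calls in each of the 5 comparisons with edgeR and with each alternative run. Their log2 fold changes of ixr1-1 over Col-0 ran from -0.15 to 0.35 with DMSO and from -0.50 to 0.19 with isoxaben, and 0 of 8 had an unadjusted p of at most 0.05 in either; for isoxaben in Col-0 there was 1, PDLP5. Of 8 tested RBOH oxidases 3 rose and 1 fell in ixr1-1 with DMSO, where 9.79% of all tested genes rose and 7.42% fell. RBOHD rose (log2 0.57 ± 0.09 SE, adjusted p = 0.000311), as did RBOHF (0.35) and RBOHA (0.53), and RBOHB fell by 0.33. The count of 4 ran from 1 to 5 when single libraries were left out, and DESeq2 called 2. Without Col-0 DMSO library 3, RBOHF, RBOHA and RBOHB were not called (adjusted p = 0.085, 0.0634 and 0.0882), and without ixr1-1 DMSO library 2 they were not either (0.0839, 0.0548 and 0.177); RBOHA and RBOHB also lost their calls without Col-0 DMSO library 1 (0.102 and 0.149) or 2 (0.0836 and 0.0555), RBOHA without ixr1-1 DMSO library 3 (0.128), and RBOHB without ixr1-1 DMSO library 1 (0.126) or ixr1-1 isoxaben library 3 (0.0518). With isoxaben RBOHF alone rose (0.32, adjusted p = 0.0322), 1 of the 8, where 6.92% of all tested genes rose and 5.85% fell. That RBOHF call was lost without Col-0 isoxaben library 1 or 3 (0.0549 and 0.147) or ixr1-1 isoxaben library 1 or 2 (0.0816 and 0.119).

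Of 12 partners of receptor complexes, 9 rose and 1 fell in ixr1-1 with DMSO, where 9.79% of all tested genes rose and 7.42% fell. By adjusted p the first were the MAP kinase gene MPK3 (log2 0.98 ± 0.10 SE, adjusted p = 3.38e-06), the receptor gene EFR (1.02), the kinase gene BIK1 (0.95) and the chitin receptor gene CERK1 (0.56). FLS2, outside this order and named for its link to CRKs, rose by 1.53 ± 0.23 (SE; adjusted p = 0.00135). The callose synthase gene CALS1 was the one that fell, by 0.33, a call lost without Col-0 DMSO library 1 (0.0705) or ixr1-1 DMSO library 1 or 2 (0.0805 and 0.0855). With isoxaben 4 of the 12 rose (6.92% of all tested genes did), BIK1, FLS2, EFR and PBL1, with 2 to 6 when single libraries were left out. Without ixr1-1 isoxaben library 2 the calls of FLS2 and PBL1 were lost (0.0589 and 0.068), without ixr1-1 isoxaben library 3 that of EFR (0.0636), without Col-0 isoxaben library 2 those of FLS2 and EFR (0.055 and 0.0637), and without Col-0 isoxaben library 3 those of EFR and PBL1 (0.0605 and 0.0942).

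In ixr1-1 with DMSO, 7 of the 19 tested salicylate genes (synthesis and response) were called higher and 1 lower, against 9.79% and 7.42% of all tested genes. The regulator gene CBP60G (log2 1.85 ± 0.23 SE, adjusted p = 1.99e-05), SAG101 (0.59), EDS1 (0.69) and the salicylate synthesis gene PBS3 (2.47) came first by adjusted p. The salicylate marker gene PR1 was the one that fell: it had 2, 1 and 2 counts in ixr1-1 with DMSO, against 17, 26 and 8 counts in Col-0 with DMSO (adjusted p = 0.00507), a call lost without ixr1-1 DMSO library 2 (0.0697). With isoxaben 3 rose (PBS3, SAG101 and EDS1) and 4 fell (GRXC9, NPR3, PR1 and WRKY38), where 6.92% of all tested genes rose and 5.85% fell; the log2 fold changes of GRXC9 and NPR3 were -2.21 and -0.76. The 3 that rose each rested on single libraries. EDS1 lost its call without Col-0 isoxaben library 2 or 3 (0.117 and 0.125) or ixr1-1 isoxaben library 1 or 2 (0.052 and 0.121), SAG101 without Col-0 isoxaben library 3 (0.0701), and PBS3 without ixr1-1 isoxaben library 3 (0.0513). For isoxaben in Col-0, where no CRK was called, 5 of the 19 rose (GRXC9, NPR3, PAD4, CBP60G and WRKY38), against 0.613% of all tested genes. Without Col-0 DMSO library 1 or 3, Col-0 isoxaben library 2, ixr1-1 DMSO library 1 or ixr1-1 isoxaben library 3 the count was 3, the calls of CBP60G and WRKY38 being lost. WRKY38 also lost its call without Col-0 DMSO library 2 (edgeR adjusted p = 0.149), ixr1-1 DMSO library 2 or 3 (0.0713 and 0.0663) or ixr1-1 isoxaben library 2 (0.0722). CBP60G also lost its call without Col-0 isoxaben library 1 (0.172). Neither was called by limma-voom or when only the groups compared were fitted. MPK3 rose there too, by 0.56 ± 0.10 on the log2 scale (SE; adjusted p = 0.00607), the single call among the 12 receptor partners.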

How the data were processed

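Polyadenylated RNA of 12 seedling samples (4 groups of 3 libraries) was sequenced as stranded libraries. The deposited values are raw read counts per gene, made by the authors with bcl2fastq, FastQC 11.1, STAR 2.4.1 and featureCounts 1.4.6, per the submitters' processing notes; those sources name no genome build. Exon gaps in the files' gene coordinates had GT and AG ends on TAIR10.1 for 97.9% of gaps, so names and promoters were taken from RefSeq TAIR10.1 (all 41 members matched). Reads shared by near-identical copies, or by genes on opposite strands, could be split between genes in the authors' counting.

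Depth ranged from 8521491 to 20658035 counts. Genes passing edgeR's filterByExpr (20379) were scaled by TMM and fitted in 1 model with 4 group terms, using edgeR 4.0.16 in R 4.3.3 (robust quasi-likelihood test) with Benjamini-Hochberg adjustment over all tested genes; a call is an adjusted p of at most 0.05, and all tests were two-sided. In 5 contrasts, ixr1-1 was set against Col-0 in each treatment, isoxaben against DMSO in each genotype, and the isoxaben effects against each other. Adjusted p values in the text, also those with a library left out, are from this edgeR test. Identity between genes came from blastn 2.17.0 (at least 90% over at least 100 bases). Alternatives were DESeq2 size factors, library size alone, other filters, DESeq2 1.42.0, limma-voom (limma 3.58.1), only the groups compared, replicate blocks and each library left out; a filter at a mean of 1 CPM and leaving out both ixr1-1 libraries numbered 1 were chosen after seeing the data.

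Members, lists and alternatives were chosen with earlier results of these data known. By rule, values per library are given for the 15 members with the smallest adjusted p and the 3 with the highest level per kb of exon (16 in all), and for the other lists the called genes with the smallest adjusted p, up to 4. No label says that the replicates came from separate cultures; the p values therefore reflect only how these samples spread, which may be technical. Replicates of a group differed by more than counting noise (chi-square per degree of freedom 2.85 to 7.06 over 12 pairs). Counting intervals and floors (95%, 3 counts) cover counting error only. Same-numbered libraries were not treated as pairs.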

Additional observations from a re-analysis of the deposited data

Results flagged for a closer look

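For no CRK member was the isoxaben effect called different between ixr1-1 and Col-0, but for 3 genes of the related lists it was, by the test of the interaction (edgeR). MPK3 had a difference of -0.77 on the log2 scale (adjusted p = 0.0161), with adjusted p values up to 0.0848 when 1 of 5 libraries was left out (Col-0 DMSO 1, Col-0 isoxaben 1, ixr1-1 DMSO 2 or 3, ixr1-1 isoxaben 3). For NPR3 it was -0.95 (adjusted p = 0.0292), and the call was lost without any library but Col-0 isoxaben 1 or 3 or ixr1-1 isoxaben 2, with adjusted p values of 0.0526 to 0.146. For GRXC9 it was -2.59 (adjusted p = 0.0356), and the call was lost without Col-0 DMSO 2 or 3, Col-0 isoxaben 1 or 2, ixr1-1 DMSO 2 or 3, or ixr1-1 isoxaben 1 or 3, with adjusted p values of 0.0531 to 0.266. GRXC9 had 7, 9 and 15 counts in ixr1-1 with isoxaben, 6, 20 and 9 in ixr1-1 with DMSO, 45, 72 and 34 in Col-0 with isoxaben and 15, 8 and 9 in Col-0 with DMSO.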

How the results depend on the processing

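Of the 28 members called higher in ixr1-1 with DMSO, 24 were called in each alternative that tested them, and of the 21 with isoxaben 14 were. There were 22 such alternatives, but 20 for CRK7 and CRK24 with DMSO and 19 for CRK7 with isoxaben. No called member changed sign in any of them. With each library left out in turn the counts were 26 to 29 with DMSO and 16 to 23 with isoxaben, and 0 for isoxaben in either genotype and for the interaction. With a fold of at least 2 asked as well, 9 members were called with isoxaben, and the share of all tested genes at that fold is not given here. For isoxaben in Col-0, 1 member (CRK11) was called when only the groups compared were fitted (adjusted p = 0.00356) and 1 (CRK11) with the replicate block by flask (0.0469). The replicate block by flask also called 1 interaction (CRK11, log2 -0.84, adjusted p = 0.0444). The labels do not say that a number marks a flask. Correlations were taken between the deviations of log2 CPM from the group mean, not between the levels. By this measure same-numbered isoxaben and DMSO libraries correlated over 0.1 in 4 of 6 pairs (0.030 to 0.312). Of the isoxaben libraries 5 of 6 correlated best with their own number, counting a tie of Col-0 isoxaben library 1 with Col-0 DMSO libraries 1 and 2 (0.030). Same-numbered ixr1-1 and Col-0 libraries correlated over 0.1 in 2 of 6 pairs, and the replicate block by number called 28 members with DMSO and 24 with isoxaben. The causes of these changes were not tested. For members with few counts such as CRK7 and CRK32, depth limits what could be seen.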
